A study of Mus musculus with 2 samples.

Results

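The OAS family and its companion sensors of cytosolic nucleic acids were examined in primary mouse macrophages as 10 genes: Oas1a, Oas1g, Oas2, Oas3, Oasl1, Oasl2, Eif2ak2, Ifih1, Dhx58 and Zbp1. They were taken by symbol, and all 10 were found among the 34745 gene identifiers of the RNA-seq table. The table held 1 library from cells transfected with a control antisense oligonucleotide (Control-ASO) and 1 from cells transfected with an oligonucleotide named for Acly (AclyE14-ASO). Both came from bone marrow-derived macrophages of C57BL/6 mice, and both were treated with lipopolysaccharide (LPS), the bacterial ligand of TLR4. The dose and duration of LPS, the animals' age and sex, and the number of animals behind each library are not stated in the labels. Both libraries thus carried a transfected oligonucleotide and LPS, so the values compare the oligonucleotides and measure no induction over resting cells.

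These genes encode the cell's own alarm against foreign or misplaced nucleic acid. The oligoadenylate synthetases (OAS) bind double-stranded RNA and make 2′-5′ linked oligoadenylates, the second messenger of an RNA decay pathway. PKR (Eif2ak2) binds the same kind of RNA and stops translation by phosphorylating eIF2α, MDA5 (Ifih1) and LGP2 (Dhx58) belong to the RIG-I-like helicases that signal through MAVS to type I interferon, and ZBP1 recognises Z-form nucleic acid and can start necroptosis through RIPK3. All are classical interferon-stimulated genes, and in macrophages LPS reaches them through TRIF, IRF3 and secreted interferon-β.

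Each condition was a single library of 14215397 (Control-ASO) or 12751076 (AclyE14-ASO) gene counts. There is therefore no estimate of the spread between cultures, no test was run across genes, and no difference below has a replicate check. Levels are FPKM, log2 ratios (of FPKM + 1) set the AclyE14-ASO over the Control-ASO, and ratios of counts per library total carry exact 95% intervals that cover counting error only. A gene was called higher or lower at 1.5-fold on FPKM + 1. Acly itself had 1549 counts in the Control-ASO library and 768 in the AclyE14-ASO library, a ratio of 0.553 (0.506 to 0.603). Expressed genes, those averaging 1 FPKM or more over the libraries, numbered 8658 and are the genes tested below. Their median log2 ratio was -0.13, so ratios are also given relative to the median gene. That centring moves the share of higher genes among all called genes from 45.3% (609 higher, 734 lower) to 67.7% (851 higher, 406 lower).

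The main features of the 10 genes were their high level in both libraries and a difference among the OAS members, which was described after the values were seen. All 10 passed the expression limit in both libraries, none was called higher and none lower, where 7.03% of all genes tested were called higher and 8.48% lower. The members in the Oas1, Oas2 and Oas3 cluster (Oas1a, Oas1g, Oas2 and Oas3) had count ratios of 0.662 to 0.830. The OAS-like genes Oasl1 and Oasl2 lay at 1.03 and 1.05. Scarcer cluster genes that are not members lay outside that range on both sides (Oas1d 0.656, Oas1b 0.951 and Oas1c 1.88). Among the other sensors Dhx58 was at 0.698, Ifih1 at 0.923, Eif2ak2 at 1.01 and Zbp1 at 1.28. At a smaller limit, 25% above or the reciprocal below, 1 was higher (Zbp1) and 4 were lower (Oas1g, Oas2, Oas3 and Dhx58), against 14.2% and 26.7% of all genes tested. The median log2 ratio of the 10 genes was -0.19 (6 of them below 0, against 64.9% of all genes tested), beside -0.13 over all genes tested.

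Read assignment within the Oas1 genes bears on the first of these values, so the sequences of the most abundant pair are shown first. Oas1a (ENSMUSG00000052776, GRCm38 chromosome 5, 120896256 to 120907521, minus strand) and Oas1g (ENSMUSG00000066861, 120876142 to 120887613, minus strand) are neighbouring protein-coding copies. Their annotated coding sequences are both 1101 nt long and differ at 36 positions, an identity of 96.7%. The longest stretch without any difference runs for 231 nt. The 120 nt with the most differences, coding positions 409 to 528, are printed in lower case with the 17 differing bases in capitals.
Oas1a: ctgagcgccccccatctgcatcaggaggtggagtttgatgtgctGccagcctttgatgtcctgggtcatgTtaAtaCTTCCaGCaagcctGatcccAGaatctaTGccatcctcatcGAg
Oas1g: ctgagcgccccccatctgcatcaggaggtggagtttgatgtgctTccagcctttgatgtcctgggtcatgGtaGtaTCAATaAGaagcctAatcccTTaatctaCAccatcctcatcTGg
Of all 50-base words in the Oas1a transcript, 57.6% also occur in a transcript of Oas1g, and 54.1% of those in Oas1g also occur in one of Oas1a. Only reads over differing positions tell these genes apart, and the labels do not say how shared reads were assigned. By contrast, 6 of the other members (Oas2, Oasl1, Oasl2, Ifih1, Dhx58 and Zbp1) shared no 50-base word with any other annotated gene, and Eif2ak2 and Oas3 shared 0.352% and 0.471% of theirs. The words were taken from each gene's longest coding transcript only, so exons outside it were not examined.

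Oas1a, a catalytically active synthetase, was at 408 FPKM (10935 counts) in the Control-ASO library and at 339 FPKM (8138 counts) in the AclyE14-ASO library. The count ratio was 0.830 (0.806 to 0.854) and the log2 ratio -0.27. Oas1g, the other active Oas1 copy, was at 108 and 82.1 FPKM (5137 and 3506 counts), with a ratio of 0.761 (0.729 to 0.794) and a log2 ratio of -0.39. Both copies were thus lower in the AclyE14-ASO library, short of 1.5-fold. Summed over both copies, which sets aside how shared reads were divided between them, the ratio was 0.808 (0.789 to 0.827). The share of their joint counts given to Oas1a was 68.0% (exact binomial interval 67.3% to 68.8%) with the control and 69.9% (69.0% to 70.7%) with the AclyE14-ASO, intervals that do not overlap but lie close together. Relative to the median gene Oas1a lay at a log2 ratio of -0.14 and Oas1g at -0.26. Of all genes tested, 32.8% and 19.9% had a lower log2 ratio.

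Oas2 and Oas3 code for larger synthetases built from repeated OAS units. Oas3 (ENSMUSG00000032661, chromosome 5, 120753098 to 120777661, minus strand) was at 74.97 FPKM from 8942 counts and 51.8 FPKM from 5540 counts, a ratio of 0.691 (0.668 to 0.714). Oas2 (ENSMUSG00000032690, 120730333 to 120749853, minus strand) was the least abundant member in both libraries, at 25.1 FPKM from 2928 counts and 16.6 FPKM from 1739 counts. Its ratio of 0.662 (0.624 to 0.703) was the lowest of the 10 and lay past 1.5-fold by counts, as it did for 14.4% of all genes tested, but its interval spanned that limit. On FPKM + 1 the log2 ratios of Oas2 and Oas3 were -0.57 and -0.53, inside the limit, and relative to the median gene they were -0.44 and -0.40. On FPKM + 1, 9.29% of all genes tested had a lower log2 ratio than Oas2 and 11.1% a lower one than Oas3. The 4 cluster members together went from 27942 to 18923 counts, or from 0.197% to 0.148% of the library, a ratio of 0.755 (0.741 to 0.769).

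**Figure D1:**
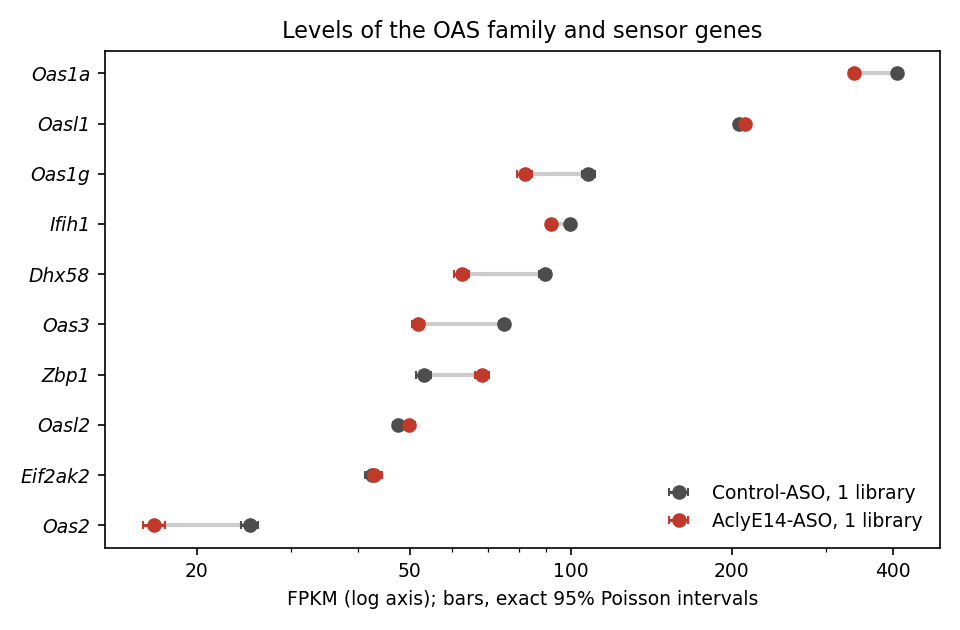
Level of each of the 10 genes in FPKM (log axis) in the Control-ASO library (grey) and the AclyE14-ASO library (red), 1 library each, with exact 95% Poisson intervals of the counts. Oas1a is highest at 408 and 339 FPKM and Oas2 lowest at 25.1 and 16.6 FPKM, and the libraries nearly coincide for Oasl1, Oasl2 and Eif2ak2.

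The OAS-like genes did not share the lower values of the 4 cluster members. Oasl1, which lacks synthetase activity and is known to restrain translation of Irf7, was at 206 FPKM (16395 counts) and 212 FPKM (15144 counts). Its ratio was 1.03 (1.01 to 1.05). Oasl2, an OAS-like protein with a ubiquitin-like tail, was at 47.6 FPKM (7258 counts) and 49.9 FPKM (6828 counts), a ratio of 1.05 (1.01 to 1.08). The OAS-like pair was thus within a few percent of the control, and above the median gene by 0.17 (Oasl1) and 0.20 (Oasl2) on the log2 scale. Summed over the pair the ratio was 1.04 (1.02 to 1.05), beside 0.755 (0.741 to 0.769) for the 4 cluster members. This grouping, by gene name and locus, was described after the values were seen. The gap between these intervals is therefore no support for it, and it lies between 2 single libraries. Oas1a, Oas1g, Oasl1 and Oasl2 all lay within the middle 50% of all genes tested (0.749 to 1.11), and Oas2 and Oas3 lay below it.

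Position was part of how these groups were drawn, so it is no separate finding. Oasl2 (ENSMUSG00000029561, plus strand, from 114896936) and Oasl1 (ENSMUSG00000041827, plus strand, to 114937915) lie side by side on chromosome 5. The cluster of 10 Oas1, Oas2 and Oas3 genes begins 5.79 Mb further along and spans 191 kb, from 120730333 to 120921652. Within this cluster the 4 abundant genes all lay below 1, and the scarce copies were mixed. Oas1b, annotated as a polymorphic pseudogene, was at 8.53 and 8.11 FPKM with a ratio of 0.951 (0.821 to 1.10). Oas1d had 51 and 30 counts and Oas1c had 85 and 143. The Oas1c ratio of 1.88 (1.42 to 2.48) made it higher by 1.5-fold. Oas1e had 0 and 1 counts, and Oas1f and Oas1h had 0 in both libraries.

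**Figure D2:**
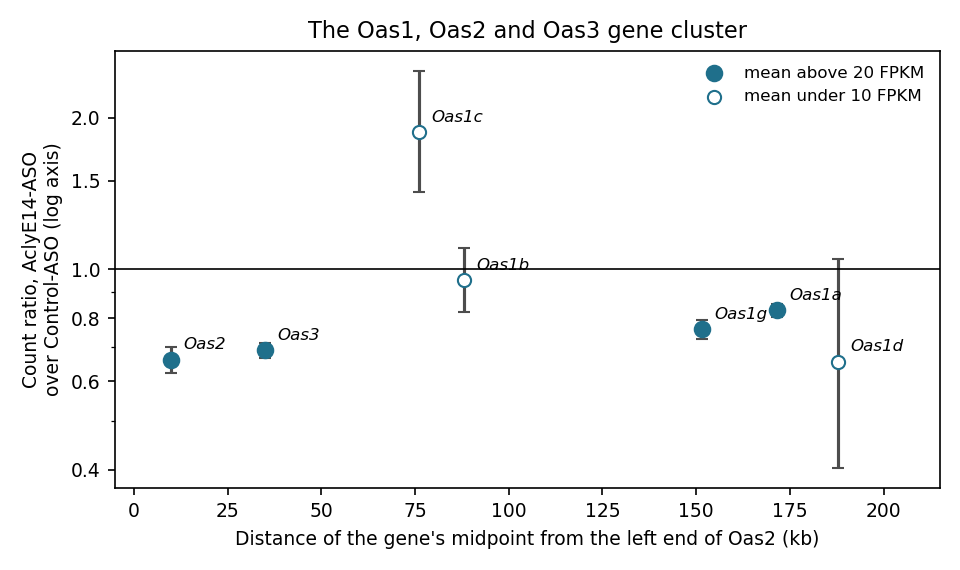
Count ratio, AclyE14-ASO over Control-ASO (log axis), of the 7 expressed genes of the cluster, against the distance of each gene's midpoint from the left end of Oas2 in kb, with exact 95% counting intervals. Filled points are the abundant Oas2, Oas3, Oas1g and Oas1a, all between 0.662 and 0.830, and open points are the scarce Oas1c, Oas1b and Oas1d.

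Promoter sequence is given as a description, and its part in the members' values was not tested. RefSeq windows of 300 bases on GRCm38.p6, from 250 bases before the start site, were at hand for 7 members, all but Oas2, Dhx58 and Zbp1. The members with the lowest (Oas2) and highest (Zbp1) count ratios were thus not covered. The core of the interferon-stimulated response element, GAAANNGAAA, was searched on both strands. It occurred in 5 of these 7 windows and in 3.44% of all 32851 windows. The members are known interferon-stimulated genes, so their larger share is no result of these data. Oas1a and Oas1g carried a pair of overlapping matches that share 4 bases, starting 20 and 14 bases before the start site in Oas1a and 18 and 12 in Oas1g. Oas3 carried 1 match that starts 75 bases before its start site. The matches of Eif2ak2 and Ifih1 lay just past the start site, and the windows of Oasl1 and Oasl2 held none, which says only that these letters are not in these windows. The 120 bases from 122 to 3 before the start site are printed 5′ to 3′ on the gene's strand, which is the minus strand, with the matches in capitals: chr5:120907528-120907647 for Oas1a, chr5:120887616-120887735 for Oas1g and chr5:120777662-120777781 for Oas3.
Oas1a: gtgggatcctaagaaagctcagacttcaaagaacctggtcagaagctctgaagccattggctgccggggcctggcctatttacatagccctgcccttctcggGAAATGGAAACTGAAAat
Oas1g: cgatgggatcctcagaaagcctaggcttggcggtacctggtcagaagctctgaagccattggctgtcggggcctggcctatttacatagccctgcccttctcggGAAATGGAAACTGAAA
Oas3: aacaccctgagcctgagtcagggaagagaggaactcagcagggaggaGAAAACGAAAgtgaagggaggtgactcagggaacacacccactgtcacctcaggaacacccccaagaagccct
The Oas1a and Oas1g stretches share an identical run of 54 bases that includes both matches. A match is a description of the sequence, not of a bound site.

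Of the helicases among the members, Dhx58 had a count ratio inside the range of Oas1a, Oas1g, Oas2 and Oas3 (0.662 to 0.830). That of Ifih1 lay above this range. Dhx58 (ENSMUSG00000017830, chromosome 11, 100694884 to 100704271, minus strand) encodes LGP2, which lacks the signalling domains of its relatives and tunes their activity. It was at 89.7 FPKM (5576 counts) in the Control-ASO library and at 62.6 FPKM (3490 counts) in the AclyE14-ASO library. The ratio was 0.698 (0.669 to 0.728) and the log2 ratio -0.51, or -0.38 relative to the median gene. Ifih1 (ENSMUSG00000026896, chromosome 2, 62595798 to 62646255, minus strand) encodes MDA5, the sensor of long double-stranded RNA. It was at 99.6 FPKM (16008 counts) and 91.9 FPKM (13254 counts), a ratio of 0.923 (0.902 to 0.945). Its log2 ratio of -0.11 turned to 0.014 relative to the median gene, so no direction is given for it. An antisense gene, Dhx58os, overlaps Dhx58 and had 0 counts in both libraries. The antisense neighbours that overlap Oasl1 (Gm13822, 80 and 42 counts) and Eif2ak2 (Gm26637, 26 and 29 counts) were scarce beside the members.

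Scaled to library totals, PKR differed by less than counting error, and Zbp1 was higher, inside the 1.5-fold limit. Eif2ak2 (ENSMUSG00000024079, chromosome 17, 78852564 to 78882573, minus strand) was at 42.6 FPKM (3550 counts) and 42.9 FPKM (3209 counts). Its ratio of 1.01 had the only interval of the 10 that included 1 (0.960 to 1.06), and relative to the median gene its log2 ratio was 0.14. Zbp1 (ENSMUSG00000027514, chromosome 2, 173206612 to 173218923, minus strand) was at 53.1 FPKM (3650 counts) and 68.3 FPKM (4206 counts). Its ratio of 1.28 (1.23 to 1.34) was the highest of the 10. The log2 ratio was 0.36, or 0.48 relative to the median gene, and 87.2% of all genes tested had a lower log2 ratio. Counting error alone left 6 members wholly below 1 and 3 wholly above, where 44.2% and 21.7% of all genes tested were, so at these depths most genes tested pass that mark in one direction or the other.

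**Figure D3:**
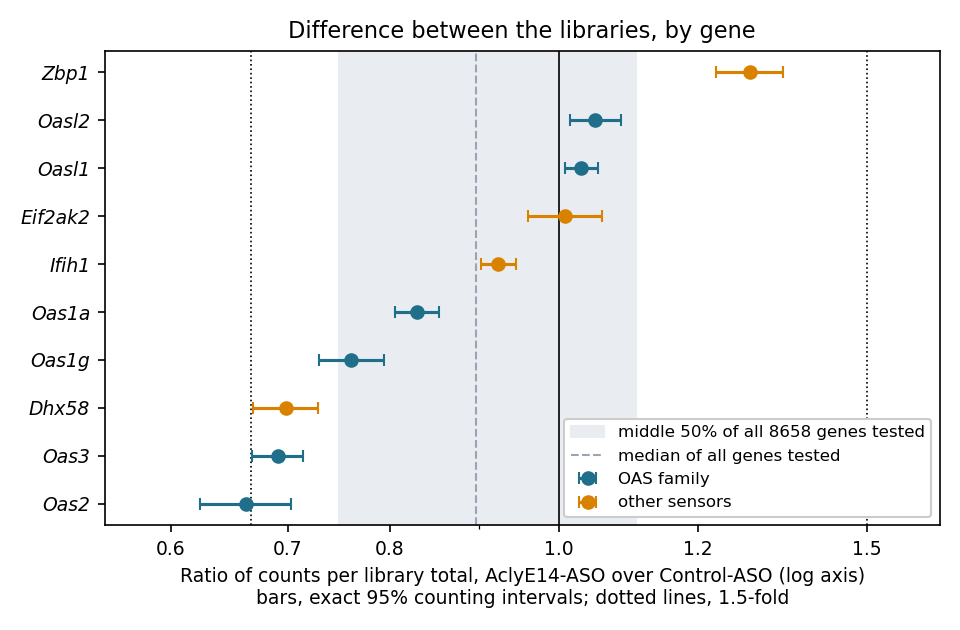
Ratio of counts per library total, AclyE14-ASO over Control-ASO (log axis), for the 10 genes with exact 95% counting intervals, OAS family in blue and the other sensors in orange. The shaded band holds the middle 50% of all 8658 genes tested (0.749 to 1.11), the dashed line their median (0.896), and the dotted lines mark 1.5-fold, which only Oas2 reaches at its point value of 0.662.

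The order of the levels, which is compared per length, was led by Oas1a and closed by Oas2 in both libraries. In the Control-ASO library the order by FPKM was Oas1a, Oasl1, Oas1g, Ifih1, Dhx58, Oas3, Zbp1, Oasl2, Eif2ak2 and Oas2, over a 16.3-fold range, and no neighbours had overlapping counting intervals. In the AclyE14-ASO library Ifih1 moved above Oas1g and Zbp1 above Dhx58 and Oas3, over a 20.4-fold range. There Oas3 (51.8 FPKM) and Oasl2 (49.9 FPKM) had overlapping intervals and are not ordered. Only 110 genes of the table were above Oas1a in the Control-ASO library, and 143 in the AclyE14-ASO library.

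The order depends on the gene length behind FPKM. Counts and FPKM together give the length the authors used, which was 1885 nt for Oas1a, equal to its longest coding transcript. For the other members it was 1.36 (Eif2ak2) to 3.43 (Oasl2) times the length of that transcript, with 5598 against 2181 nt for Oasl1. With transcript lengths in their place, an alternative chosen after seeing the data, Oasl1 led the order at 529 units in the Control-ASO library and Oas1a followed at 408 (counts per kilobase, scaled to the library total as FPKM is). Oasl2 moved from rank 8 to rank 5, and Oas2 stayed last at 52.0. Ifih1 (206) then stood above Oas1g (183) already in the Control-ASO library, so their change of order between the libraries holds only with the deposited lengths. The move of Zbp1 above Dhx58 and Oas3 held with either length. Count ratios between the libraries do not depend on the length.

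**Figure D4:**
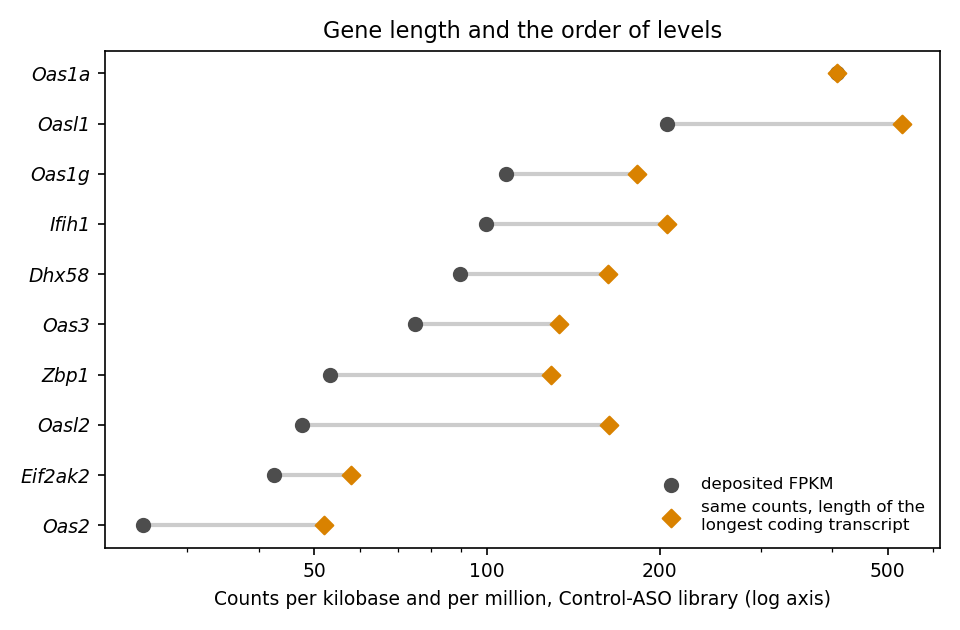
Control-ASO level of each gene (log axis, counts per kilobase scaled to the library total) as deposited (circles) and with the same counts divided by the length of the longest coding transcript (diamonds). Oas1a stays at 408, while Oasl1 moves from 206 to 529 and passes it.

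Other genes of these pathways, 77 in all from 8 lists, lay mostly within 1.5-fold as well. Of the 72 that passed the expression limit, 1 was higher (7.03% of all genes tested) and 4 were lower (8.48%). Their median log2 ratio was -0.12, beside -0.13 over all genes tested. In the list closest to the OAS enzymes, Abce1, a ribosome recycling factor, was the most abundant at 16.5 and 12.1 FPKM, and Pde12, which degrades oligoadenylates, was at 2.31 and 2.07 FPKM. Of the list's 6 measured genes only Oas1c was called.

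In RIG-I-like receptor signalling none of 12 measured genes was called. Ddx58, which encodes RIG-I itself, was at 39.1 and 36.4 FPKM with a ratio of 0.930 (0.896 to 0.966), close to Ifih1. The adaptor Mavs was at 2.62 and 2.55 FPKM. The ubiquitin ligases of RIG-I lay at the upper end, with Rnf135 at 19.2 and 29.1 FPKM (log2 ratio 0.58, just inside the limit, and 1.52 by counts with 1.36 to 1.69) and Trim25 at 89.4 and 117 FPKM. Irf7, the interferon-induced regulator and most abundant gene of the list, was at 116 and 113 FPKM. The kinases Tbk1 (47.0 and 38.9 FPKM) and Ikbke (10.2 and 7.97 FPKM) had ratios of 0.828 and 0.781.

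Around PKR, none of 10 measured genes was called, and the median log2 ratio was -0.23. Adar, the editing enzyme that keeps self RNA from activating PKR and MDA5, was at 37.5 and 35.8 FPKM. The other eIF2α kinases Eif2ak1, Eif2ak3 and Eif2ak4 had ratios of 0.779, 0.675 and 0.658, below that of Eif2ak2, and Eif2ak3 and Eif2ak4 stood at 1.21 and 2.88 FPKM with the control. The phosphatase subunit Ppp1r15b was the most abundant at 77.2 and 80.0 FPKM. In the ZBP1 pathway none of 6 genes was called. Ripk3, the kinase that ZBP1 engages, was at 18.7 and 24.7 FPKM with a ratio of 1.32 (1.18 to 1.48), near that of Zbp1, while its substrate Mlkl, the most abundant of this list, was at 54.2 and 52.4 FPKM (0.967, 0.914 to 1.02) and Casp8 at 33.3 and 31.6 FPKM.

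Among 14 genes of cytosolic DNA sensing, 1 was lower and none higher. It was Ifi207, a PYHIN family member, at 138 and 74.9 FPKM (ratio 0.542, 0.521 to 0.563). PYHIN genes are related copies, and 7.39% of the 50-base words of Ifi207 occur in other genes. Other genes of the list lay on both sides of 1 inside the limit. Ifi209 was at 181 and 131 FPKM (ratio 0.721, 0.698 to 0.744) and Aim2 at 14.6 and 11.5 FPKM (0.789, 0.720 to 0.865), while Ifi203 was at 50.8 and 59.2 FPKM. Other genes hold 35.1% of the 50-base words of Ifi209 and 23.9% of those of Ifi203, a limit on both values. Ifi211, the most abundant gene of the list, was at 397 and 390 FPKM, with 72.8% of its 50-base words in other genes, so its reads are uncertain. Cgas, the cytosolic DNA sensor, was at 4.44 and 4.42 FPKM. Of 6 endosomal genes 2 were lower, both Toll-like receptors for nucleic acid: Tlr7, which senses single-stranded RNA, at 21.2 and 11.0 FPKM (ratio 0.517, 0.487 to 0.549), and Tlr9, which senses CpG DNA, with 213 and 56 counts (0.293, 0.214 to 0.395). Tlr3, which senses double-stranded RNA as the OAS enzymes do, was at 24.3 and 21.9 FPKM, and the transport protein gene Unc93b1, the most abundant of the list, at 73.1 and 72.6 FPKM.

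Other antiviral RNA-binding genes, with none of 8 called, had a median log2 ratio of -0.22. The IFIT genes were at 1006 and 836 FPKM (Ifit1), 969 and 884 FPKM (Ifit2) and 1838 and 1615 FPKM (Ifit3). Of the 50-base words of Ifit3, 51.2% also occur in Ifit3b, so the reads of Ifit3 are uncertain. Zc3hav1, the zinc finger antiviral protein, had 67.3 and 47.4 FPKM and a count ratio of 0.705 (0.680 to 0.732), beside 0.691 for Oas3. Of 10 listed genes of interferon signalling, whose part in the members' values was not tested, only Irf9 was lower. Irf9 was at 24.0 and 13.9 FPKM (ratio 0.578, 0.543 to 0.615). It overlaps Rnf31 on the same strand, and adding the counts of Rnf31 gave a ratio of 0.742 (0.708 to 0.776). Of the 50-base words of Irf9, 2.78% occur in other genes. The sum is thus no corrected value for Irf9. Stat2, the partner of Irf9 in the ISGF3 complex, was at 134 and 131 FPKM. Ifnb1 was at 172 and 155 FPKM, and Usp18, the most abundant of this list, at 278 and 262 FPKM.

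**Figure D5:**
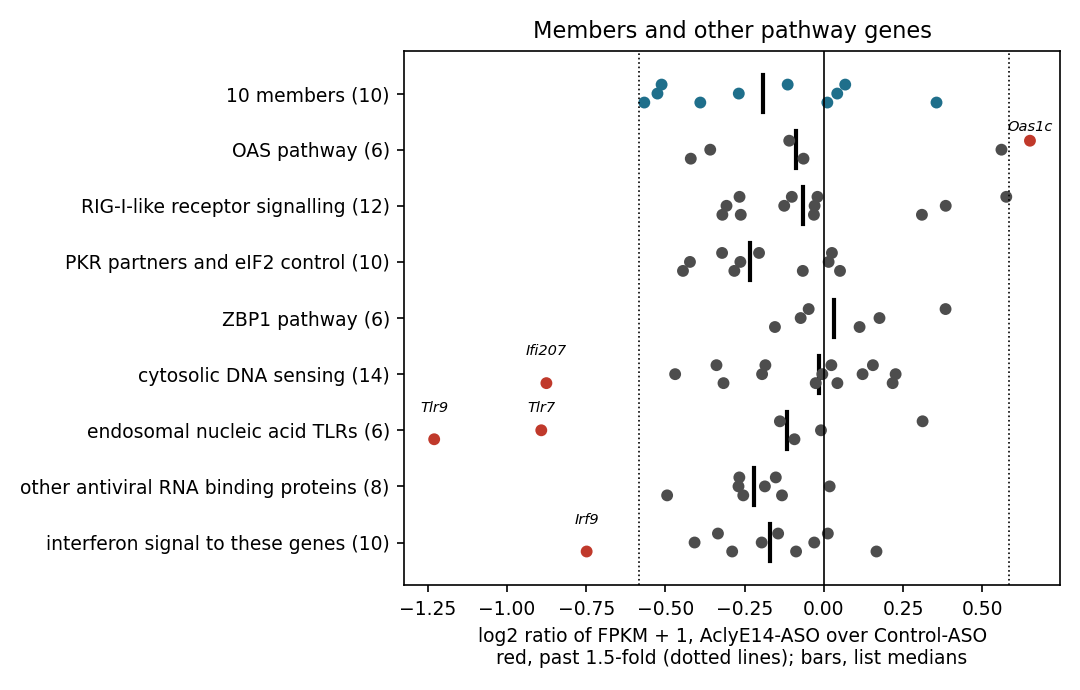
Difference on the log2 scale of FPKM + 1, with AclyE14-ASO set over Control-ASO, of the 10 members (top row, blue) and of the measured genes in each pathway list, with black bars at the list medians and dotted lines at 1.5-fold. The 5 red genes past the limit are Oas1c on the right and Ifi207, Tlr7, Tlr9 and Irf9 on the left, and no member is past it.

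Markers of other cell types moved between the libraries too. For comparison, 7.03% of all genes tested were called higher and 8.48% lower. All 7 macrophage markers were measured, 2 were called higher and 1 lower, with a summed level of 11069 and 13117 FPKM. Most of that sum was Lyz2, the lysozyme gene, at 9798 and 12276 FPKM, and without it the other 6 summed to 1271 and 840.4 FPKM. The lower marker was Cd68, at 1059 and 590.0 FPKM (ratio 0.557). The higher ones were Fcgr1, at 34.7 and 68.2 FPKM, and Itgam, at 9.12 and 43.2 FPKM. Itgam had 934 and 3972 counts, while Gm49368, which overlaps it on the same strand, had 1834 and 6. How reads were divided between these genes is not stated, so the size of the Itgam difference is uncertain. Csf1r (ratio 0.784) and Adgre1 (0.795) were lower inside the 1.5-fold limit. Of 10 stromal and fibroblast markers 7 were measured and all 7 were called higher, with a sum of 49.1 and 213 FPKM and none at 0 counts in both libraries. Of 6 cell cycle genes 3 were measured and all 3 called higher (sum 4.25 and 14.0 FPKM). Of 6 neutrophil markers 2 were measured and 1 called higher (sum 23.9 and 48.1 FPKM). The one called was S100a8, at 19.7 and 41.4 FPKM, and S100a9, Ly6g and Elane were at 0 counts. None of 6 lymphocyte or 6 dendritic markers was measured, and Cd3e, Siglech, Flt3 and Xcr1 were at 0 counts. The part of these cells in the members' values was not tested. In these bulk libraries fewer cells of a type and less RNA per cell cannot be told apart.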

How the data were processed

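mRNA libraries from 2 samples were used, 1 per group, and p-values were not computed. The raw counts and the FPKM values per gene were deposited by the authors, per the file headers. The submitters' processing notes name HISAT2, StringTie 1.3.0, edgeR and mm10 without a role. Strand use and the treatment of shared reads are not stated. What 1 count was worth in FPKM differed by a factor of 1.1148 to 1.1149 between the libraries, the ratio of the count totals being 1.1148, so the FPKM values deposited were scaled to each library's summed counts.

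Symbols came from GENCODE M21 (GRCm38), which matched 34344 identifiers. An average of 1 FPKM or more was required, and the pseudocount was 1 FPKM. Intervals of ratios are exact (Clopper-Pearson) intervals of the conditional binomial, and intervals of levels are exact Poisson intervals, both at 95%. PCR copies cannot be told from separate molecules, so these intervals cover counting error only. Members and lists were chosen with earlier results of these data known. All members, every list gene past 1.5-fold and each list's most abundant gene are named, except results that are not reported here, and further genes were picked with their values in view. Ratios were centred on the median of genes averaging 5 FPKM or more. edgeR 4.0.16 (R 4.3.3) gave the TMM factors. The remaining steps used Python 3.11.15, NumPy 2.4.6, pandas 2.3.3, SciPy 1.17.1 and Biopython 1.88. The ratio, interval and size calls were tested on simulated data. Promoters are from RefSeq (GRCm38.p6), 7 of 10 members matched.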

Additional observations from a re-analysis of the deposited data

How the results depend on the processing

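The alternatives were pseudocounts of 0.1 and 5 FPKM, centring on the median gene, TMM on FPKM or CPM, no expression filter or one of 5 FPKM, size limits of 25% and 2-fold, and summing of Oas1a and Oas1g. Of 52 member values under the alternatives, 51 had the sign of the reported value, the exception being Ifih1, at 0.014 when centred. This count is no check of direction. A pseudocount cannot change a sign, nor can summing Oas1a and Oas1g, which were both lower. Centring and TMM shift all members upward by nearly the same amount, so only a value just below 0 could change sign. With a pseudocount of 0.1 FPKM 1 member, Oas2, was lower by 1.5-fold, as were 13.7% of all genes tested. At the 25% limit 1 member was higher and 4 were lower, against 14.2% and 26.7% of all genes. The members' median of -0.19 became -0.063 when centred and -0.091 under both TMM scalings. Of the other pathway genes, 1 higher as reported, 3 were higher with a pseudocount of 0.1, centred, or under either TMM scaling, 0 with a pseudocount of 5, the filter of 5 FPKM or at 2-fold, and 5 at the 25% limit. Their 4 lower genes became 1 at 2-fold and 13 at the 25% limit. Of all genes tested, 9.09% were higher with a pseudocount of 0.1, 9.83% centred, 8.67% and 10.5% under TMM on FPKM and CPM, 3.31% with a pseudocount of 5, 6.29% with the filter of 5 FPKM and 3.18% at 2-fold, where 1.55% were lower. The level of Oasl1 over that of Oas1a went from 0.505 to 1.296 (Control-ASO) and from 0.627 to 1.61 (AclyE14-ASO) with transcript lengths, an alternative chosen after seeing the data. No paired analysis was possible because each group had 1 library, and for the same reason no replicate could be left out. Depth is no limit for the members, each with 1739 counts or more in either library, but it is for Oas1c and Oas1d.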
